A study of Mus musculus with 8 samples.

Results

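The 10 kinases described here are AMPK-related kinases outside the salt-inducible (SIK) branch. They are Prkaa1 and Prkaa2, Mark1 to Mark4, Brsk1, Brsk2, Nuak1 and Snrk. They were chosen by symbol as relatives of SIK3 that LKB1 can activate, and no cut on a measured value was used. They make up 10 of the 37315 genes in the deposited count files, and all 10 passed the filter on low counts.

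Hippocampal CA1 tissue of 8 Cas9 mice gave 1 messenger RNA library per mouse. A stereotaxically delivered adeno-associated virus (AAV) carried a SIK3 guide RNA in 4 mice, labelled KO, and a control guide RNA in the other 4. Both groups held 2 males and 2 females (controls 1 and 3 and KO 1 and 2 are the males), and all 8 mice carried Cas9 and received a virus and a guide. The sources used here do not give the strain, age, Cas9 promoter, guide sequences, AAV serotype or time after injection. The labels name dissected CA1 tissue, so each library holds the RNA of all cells in the piece, and the share of cells reached by the virus is not given.

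AMP-activated protein kinase (AMPK) is a heterotrimer that senses a fall in cellular energy, and its catalytic alpha subunit founded the family. LKB1, a kinase encoded by Stk11, activates AMPK and its relatives by phosphorylating a threonine in the activation loop, or T-loop, of the kinase domain. In neurons the MARK and BRSK kinases phosphorylate microtubule-associated proteins such as tau and take part in polarity and axon formation, while NUAK1 takes part in axon branching.

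The coding bases of the T-loop are shown because the threonine there is the site that LKB1 phosphorylates in the family, SIK3 included. Each line gives 42 bases, 5′ to 3′ on the coding strand, from transcripts of GENCODE release M21 on GRCm38, with the codon of that threonine in capitals.
Prkaa1: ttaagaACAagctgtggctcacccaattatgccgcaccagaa
Prkaa2: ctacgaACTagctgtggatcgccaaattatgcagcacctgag
Mark1: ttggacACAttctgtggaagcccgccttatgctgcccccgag
Mark2: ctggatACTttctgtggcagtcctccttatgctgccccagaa
Mark3: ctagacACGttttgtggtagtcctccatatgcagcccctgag
Mark4: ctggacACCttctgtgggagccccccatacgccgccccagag
Brsk1: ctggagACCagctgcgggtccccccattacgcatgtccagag
Brsk2: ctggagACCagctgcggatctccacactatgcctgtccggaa
Nuak1: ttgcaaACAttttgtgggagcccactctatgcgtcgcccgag
Snrk: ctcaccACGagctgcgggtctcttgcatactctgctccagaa
Sik3: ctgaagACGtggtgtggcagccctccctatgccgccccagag

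The threonine is residue 183 of the Prkaa1 product and residue 172 of the Prkaa2 product. It is residue 215, 208, 211 and 214 in Mark1 to Mark4, 189 in Brsk1, 175 in Brsk2, 212 in Nuak1, 173 in Snrk and 221 in Sik3, counted in the transcripts used. The stretch lies in exon 5 of Prkaa1 (chr15:5169961-5170002), in exon 5 of Prkaa2 (chr4:105049348-105049389) and in exon 8 of each MARK gene. In Brsk1 and Brsk2 it is split by an intron between exons 5 and 6, and in Snrk it lies in exon 2. The 10 members use 4 different codons for the threonine.

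Over all 10 members 15 of the 42 bases were identical, and pairs of members shared 17 (Nuak1 and Snrk) to 34 bases. When translated, the 14 codons were the same at every residue within the AMPK alpha pair, within the 4 MARK genes and within the BRSK pair. Sik3 shared 12 of 14 residues with each MARK gene and 10 with Brsk1, Brsk2 and Nuak1. The stretch was located, in Sik3 too, by a pattern that fixes the threonine and a cysteine, glycine, tyrosine, proline and glutamate. Its presence in each gene is therefore no result. Part of the identity in the counts above was set by that pattern.

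The libraries held 13561662 to 18619928 counts, with 16743701 or more in every female and 15165413 or fewer in every male. Sik3, the targeted gene (chr9:46012820-46224194), was at 165, 148, 139 and 137 CPM (counts scaled to the size of the library) in controls 1 to 4 and at 75.3, 88.3, 82.9 and 98.4 CPM in KO 1 to 4. The groups did not overlap, and Sik3 fell by 0.77 ± 0.09 on the log2 scale (SE; edgeR quasi-likelihood test, Benjamini-Hochberg adjusted p = 0.0202). That call was lost without control 2, control 3, KO 2 or KO 3 (edgeR, adjusted p = 0.0865 to 0.242), while the log2 fold change stayed between -0.85 and -0.70. In bulk tissue, fewer cells of a type and less RNA per cell cannot be told apart. All 8 CA1 pyramidal markers were detected, with summed levels of 368 to 439 CPM under the control guide and 380 to 445 CPM under the SIK3 guide. Dentate markers were present too, at 948 to 1092 and 876 to 1072 CPM, and 0 of the tested genes of the 13 marker lists passed the guide test. Of the leukocyte markers 0 of 9 were tested, and of the choroid plexus markers 1 of 5.

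The first question was how much of each kinase transcript CA1 held. Levels are compared between genes as CPM per kilobase of merged exons, averaged over 8 libraries. Brsk1 had the highest level, 22.7 ± 2.49 CPM per kilobase (SD, n = 8), followed by Brsk2 at 17.4 ± 2.19. These 2 genes encode the SAD kinases, which are known from brain for their part in axon specification and at presynaptic terminals. Brsk1 lay above Brsk2, and Brsk2 above the next gene, Mark1, in all 8 libraries, while Brsk2 was above Prkaa1 in 7.

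Mark1 followed at 13.8 ± 0.523 CPM per kilobase, Prkaa1 at 13.1 ± 1.23 and Nuak1 at 12.2 ± 0.973 (SD, n = 8 each). Prkaa1 did not differ from either neighbour beyond the spread: Mark1 lay above Prkaa1 in 6 of 8 libraries, and Prkaa1 above Nuak1 in 5. Mark1 lay above Nuak1 in all 8. Snrk, a kinase named for its likeness to the yeast energy sensor SNF1, was at 10.7 ± 0.547, and Mark3 at 9.35 ± 0.324. Nuak1 lay above Snrk, Snrk above Mark3, and Mark3 above Mark2, in all 8 libraries. The lowest 3 levels were those of Mark2 at 7.55 ± 0.892, Prkaa2 at 6.94 ± 0.758 and Mark4 at 5.28 ± 0.798. Mark2 and Prkaa2 overlapped, with Mark2 higher in 5 of 8 libraries, and Prkaa2 lay above Mark4 in 7.

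**Figure D1:**
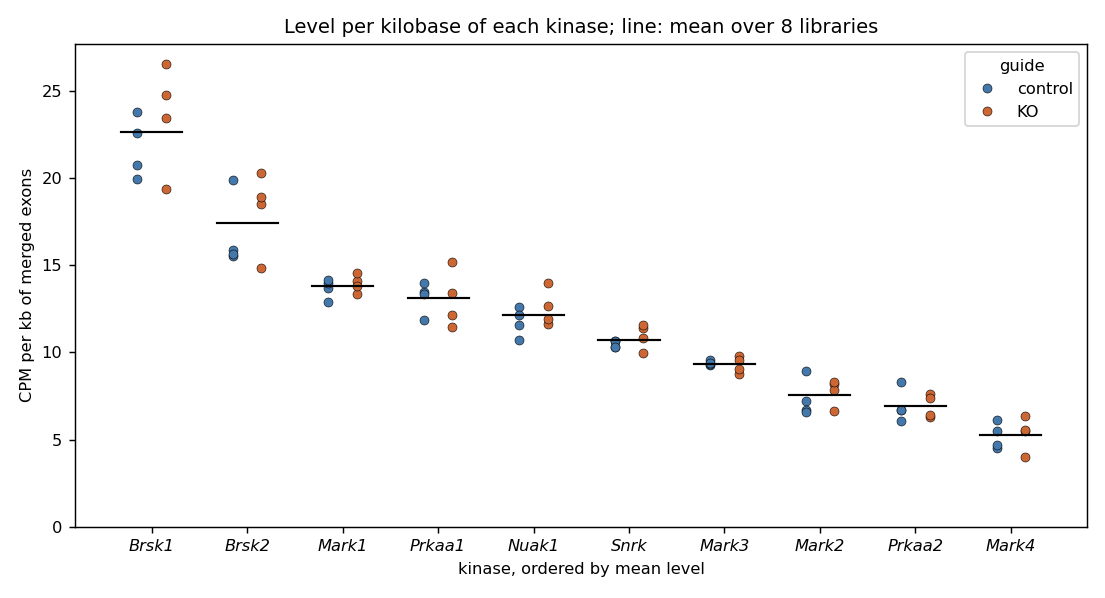
Level of each kinase in CPM per kilobase of merged exons (vertical axis), 1 point per library, blue for control and orange for KO, with a line at the mean over 8 libraries. Brsk1 and Brsk2 stand highest at 22.7 and 17.4, Mark4 lowest at 5.28, and the blue and orange points overlap for every kinase.

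For scale, Sik3 was at 15.8 ± 1.38 CPM per kilobase in controls (SD, n = 4), between Brsk2 and Mark1, and at 9.25 ± 1.04 in KO mice (SD, n = 4). Sik2 was at 2.35, Sik1 at 1.04 and Nuak2 at 0.328 CPM per kilobase over the 8 libraries, each below all 10 members. The length used moved the middle of the order. Per kilobase of the longest transcript, Mark3 took place 3 at 16.2 instead of place 7, Mark2 place 5 at 13.4 instead of 8, and Nuak1 place 8 at 12.3 instead of 5. Brsk1 and Brsk2 kept the top places at 31.0 and 25.5, and Prkaa2 and Mark4 kept the lowest.

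The share of each paralog within its group was almost the same under both guides. Prkaa1 made up 65.5 ± 2.65% of the AMPK alpha level per kilobase in controls and 65.3 ± 1.17% in KO mice (SD, n = 4 each). Mark1 made up 38.4 ± 1.92% of the MARK level in controls and 38.5 ± 0.780% in KO mice, with Mark3 at 26.5% and 25.6%, Mark2 at 20.6% and 21.2%, and Mark4 at 14.5% and 14.7%. Brsk1 held 56.6 ± 2.04% of the BRSK level in controls and 56.5 ± 0.833% in KO mice. Nuak1 held 97.6% of the NUAK level in controls and 97.2% in KO mice. Each of these differences in share was smaller than the SD within a group, apart from that of Nuak1, which was of the size of the SDs (0.354 and 0.530). The order of Mark1 and Mark3 depended on length: per kilobase of the longest transcript Mark3 held 32.9% of the MARK level in controls and Mark1 28.5%.

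The 10 members summed to 117 ± 4.68 CPM per kilobase in controls and 122 ± 5.72 in KO mice (SD, n = 4 each), and the 2 ranges overlapped. With the SIKs and Nuak2 included, the 14 kinases summed to 136 ± 5.99 and 135 ± 7.15. Within that sum Sik3 made up 11.6 ± 0.557% in controls and 6.86 ± 0.439% in KO mice.

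The second question was whether any of these relatives changed where Sik3 was lower. None of the 10 members passed the edgeR test of the guide at an adjusted p of 0.05 (0 of 10, where 0.0135% of all 14788 tested genes passed), and every member had an adjusted p of 0.9999. At an unadjusted p under 0.05 there were again 0 of 10, against 2.81% of all genes, and DESeq2 and limma voom also gave 0 of 10 at either threshold. The 2 groups overlapped for every member (0 of 10 not overlapping, against 1.74% of all genes). The log2 fold change was positive for 7 members and negative for 3 (51.5% of all tested genes were positive), with a median of 0.050 against 0.0036 over all tested genes, and a median size of 0.050 against 0.068.

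**Figure D2:**
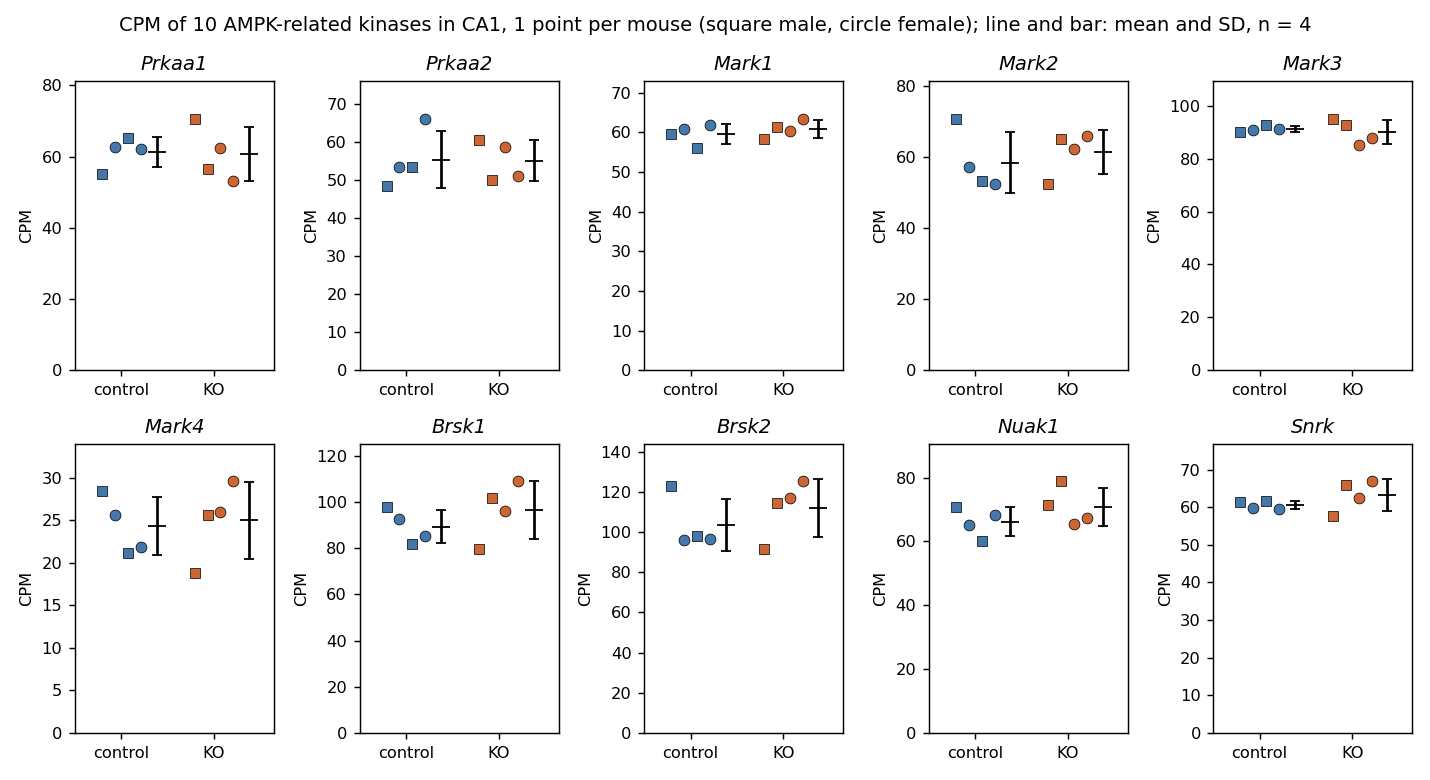
CPM of each kinase (vertical axes, starting at 0) in control mice (blue) and KO mice (orange), 1 point per mouse, squares for males and circles for females, with the mean and SD of 4 mice beside each group. The points of the 2 groups overlap in all 10 panels, and Mark3 and Mark1 show the least spread.

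Prkaa1 and Prkaa2 encode the 2 alternative catalytic alpha subunits of AMPK. Prkaa1 (chr15:5143861-5181899) was at 55.2, 62.7, 65.1 and 62.1 CPM in controls 1 to 4 and at 70.6, 56.5, 62.5 and 53.3 CPM in KO 1 to 4. Both its highest and its lowest value came from KO mice (KO 1 and KO 4), so the controls lay inside the KO range. The group means were 61.3 ± 4.28 and 60.7 ± 7.63 CPM (SD, n = 4 each), and the log2 fold change was -0.015 with a 95% interval of -0.21 to 0.18.

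Prkaa2 (chr4:105029874-105109890) was at 48.6, 53.6, 53.4 and 66.2 CPM in controls and at 60.6, 50.2, 58.8 and 51.1 CPM in KO mice. Here controls 1 and 4 marked the lowest and the highest value, with the KO mice between them. Its log2 fold change was -0.0039 ± 0.095 (SE), with an interval of -0.21 to 0.20. For both alpha subunits the interval reached about as far up as down, and changes beyond -13.6% or 15.1% lay outside it.

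The MARK kinases phosphorylate tau and other microtubule-associated proteins and so loosen them from microtubules. Mark1 (chr1:184896789-184999570) was at 59.6, 60.9, 56.1 and 61.8 CPM in controls and at 58.3, 61.4, 60.3 and 63.5 CPM in KO mice. Mark3 (chr12:111574523-111656221) was at 90.1, 90.7, 92.9 and 91.3 CPM in controls and at 95.1, 92.6, 85.1 and 87.7 CPM in KO mice. These 2 genes were the steadiest members: their coefficients of variation over 8 libraries were 3.78% and 3.47%, close to counting errors of 3.25% and 2.64%. In the edgeR fit only 4.21% and 2.99% of tested genes had a lower biological coefficient of variation. Their intervals were accordingly narrow, -0.095 to 0.16 for Mark1 (log2 fold change 0.031) and -0.14 to 0.099 for Mark3 (-0.019).

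Mark2 (chr19:7275396-7341860) was at 70.9, 57.4, 53.2 and 52.4 CPM in controls and at 52.6, 65.2, 62.2 and 65.9 CPM in KO mice. Mark4 (chr7:19424775-19458821) was at 28.5, 25.6, 21.1 and 21.9 CPM in controls and at 18.8, 25.7, 26.0 and 29.6 CPM in KO mice. In both genes control 1 was the highest control and KO 1 the lowest KO mouse, so each group spanned most of the range of the other. The log2 fold change was 0.075 ± 0.10 for Mark2 and 0.038 ± 0.13 for Mark4 (SE). Mark4 had the fewest counts of the members, 279 to 522 per library, and the widest interval, -0.25 to 0.32.

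Brsk1 (chr7:4690604-4715997) was at 97.7, 92.5, 81.9 and 85.2 CPM in controls and at 79.5, 102, 96.1 and 109 CPM in KO mice. Brsk2 (chr7:141949751-142004247) was at 123, 96.0, 98.2 and 96.6 CPM in controls and at 91.6, 114, 117 and 125 CPM in KO mice. As in Mark2 and Mark4, KO 1 was the lowest KO mouse and control 1 the highest control, and the groups overlapped. The log2 fold changes were 0.11 ± 0.091 for Brsk1 and 0.12 ± 0.10 for Brsk2 (SE), with intervals of -0.088 to 0.31 and -0.11 to 0.34. Without control 1, Brsk2 was at 0.22 (edgeR, unadjusted p = 0.0218, adjusted p = 0.536) and Mark2 at 0.18 (unadjusted p = 0.0413, adjusted p = 0.546), and 8.93% of all genes had an unadjusted p under 0.05. Without KO 1, Brsk1 was at 0.19 and Brsk2 at 0.22 (edgeR, unadjusted p = 0.0203 and 0.0202, adjusted p = 0.413 for both), and 10.9% of all genes had an unadjusted p under 0.05.

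Of the exonic bases of Brsk1, 1054 (25.7%) overlap Tmem150b on the opposite strand, and the sources used here do not state whether counting used the strand. Tmem150b held 4 to 15 counts per library against 1111 to 1924 for Brsk1. These counts do not show whether reads in the shared bases were counted for Brsk1 or left out.

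Nuak1 (chr10:84370905-84440597) was at 70.9, 65.0, 60.3 and 68.4 CPM in controls and at 71.3, 78.8, 65.4 and 67.2 CPM in KO mice. It had the smallest unadjusted p of the members (0.234 in the edgeR fit), with a log2 fold change of 0.092 ± 0.073 (SE) and an interval of -0.068 to 0.25. KO 2 was its highest library and control 3 its lowest. Snrk (chr9:122117266-122169702) was at 61.4, 59.8, 61.7 and 59.5 CPM in controls and at 57.7, 66.0, 62.5 and 66.9 CPM in KO mice. The 4 controls of Snrk lay within 60.6 ± 1.13 CPM (SD), inside the wider range of the KO mice, and the log2 fold change was 0.062 with an interval of -0.078 to 0.20.

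Over the 10 members, the intervals ran from -15.7% at the lowest to 26.9% at the highest, whereas that of Sik3 ran from -48.7% to -33.2%. A change as large as that of Sik3 therefore lay outside the interval of every member.

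**Figure D3:**
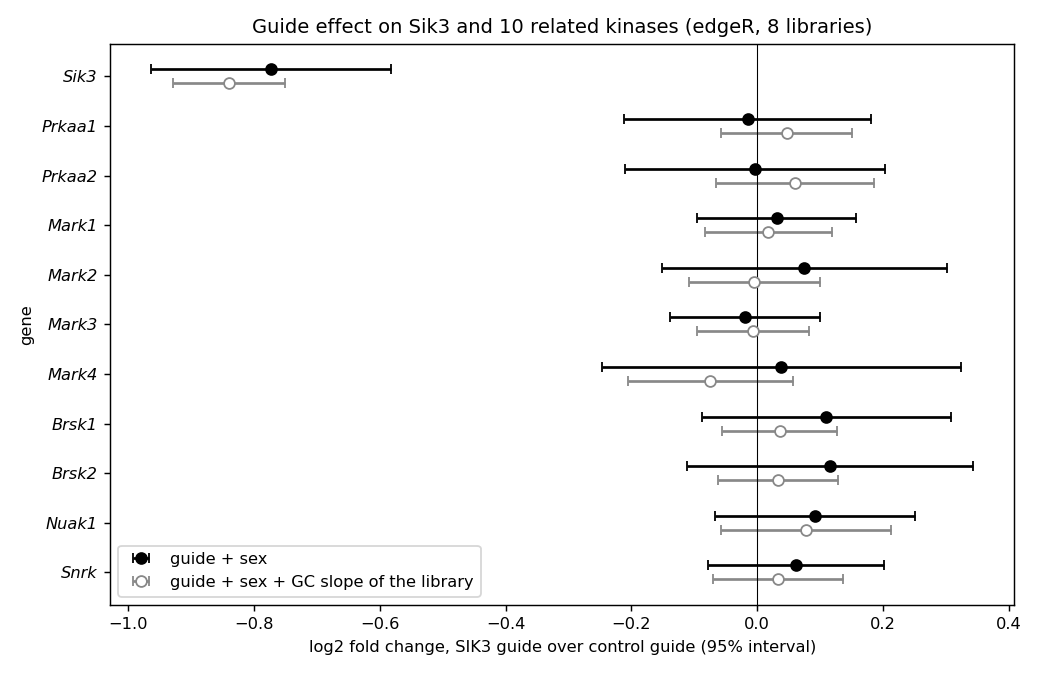
Log2 fold change of SIK3 guide over control guide (horizontal axis) with its 95% interval for Sik3 and the 10 kinases, from edgeR with sex as covariate (black) and with the GC slope of each library added (grey, open). Sik3 stands apart at -0.77, the intervals of all 10 kinases include 0 in both fits, and each grey interval is narrower than the black one of the same gene.

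The third question was whether the members differed between the sexes, or in their response to the guide between the sexes. None of the 10 passed the test of females against males (0 of 10, where 0.0609% of all genes passed), and 0 of 10 had an unadjusted p under 0.05, against 6.05% of all genes. The sexes overlapped for every member, where 4.45% of all genes did not overlap. Differences ran from -0.08 on the log2 scale for Nuak1, with 70.3 ± 7.61 CPM in males and 66.5 ± 1.57 CPM in females (SD, n = 4 each), to 0.13 for Mark4, with 23.5 ± 4.38 and 25.8 ± 3.13 CPM. Adjusted p in edgeR was 0.944 to 0.998. Males were sequenced less deeply than females, so sex and depth cannot be told apart.

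In the interaction of guide and sex, 0 of 10 members passed (0% of all genes did), and 1 of 10, Brsk2, had an unadjusted p under 0.05, against 5.42% of all genes. In females Brsk2 was at 96.0 and 96.6 CPM with the control guide and at 117 and 125 CPM with the SIK3 guide. Male values were 123 and 98.2 CPM with the control guide and 91.6 and 114 CPM with the SIK3 guide. The log2 fold change was 0.33 ± 0.12 in females and -0.10 ± 0.12 in males (SE), and their difference was 0.43 ± 0.17 (edgeR, unadjusted p = 0.0257, adjusted p = 0.765). Leaving out 1 library at a time gave differences of 0.27 to 0.59. The lowest were 0.27 without control 1 and 0.28 without KO 1 (edgeR, unadjusted p = 0.125 and 0.0970). It was 0.43 without control 2, 0.44 without control 4 and 0.38 without KO 4, where the unadjusted p was 0.0633, 0.0578 and 0.0743. Without control 3, KO 2 or KO 3 it was 0.57, 0.59 and 0.48 (edgeR, unadjusted p = 0.00461, 0.00206 and 0.0342).

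Mark4 and Mark2 had differences in the same direction, 0.39 ± 0.24 and 0.30 ± 0.19 (SE), and Brsk1 was at 0.19 ± 0.18. Those of Prkaa1, Nuak1 and Prkaa2 were negative, -0.19 ± 0.18, -0.20 ± 0.14 and -0.24 ± 0.18. Mark1, Mark3 and Snrk lay between -0.11 and 0.11. Adjusted p was 0.765 to 0.945 over the 10 members in edgeR.

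Within females alone, 0 of 10 members passed, against 0.0406% of all genes. At an unadjusted p under 0.05 there was 1 of 10, against 7.11% of all genes, and it was again Brsk2 (edgeR, unadjusted p = 0.0176, adjusted p = 0.661). Within males alone, 0 of 10 passed (0% of all genes) and 0 of 10 had an unadjusted p under 0.05 (1.83% of all genes). The largest male value was 0.19 ± 0.099 for Nuak1 (SE; edgeR, unadjusted p = 0.0748).

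**Figure D4:**
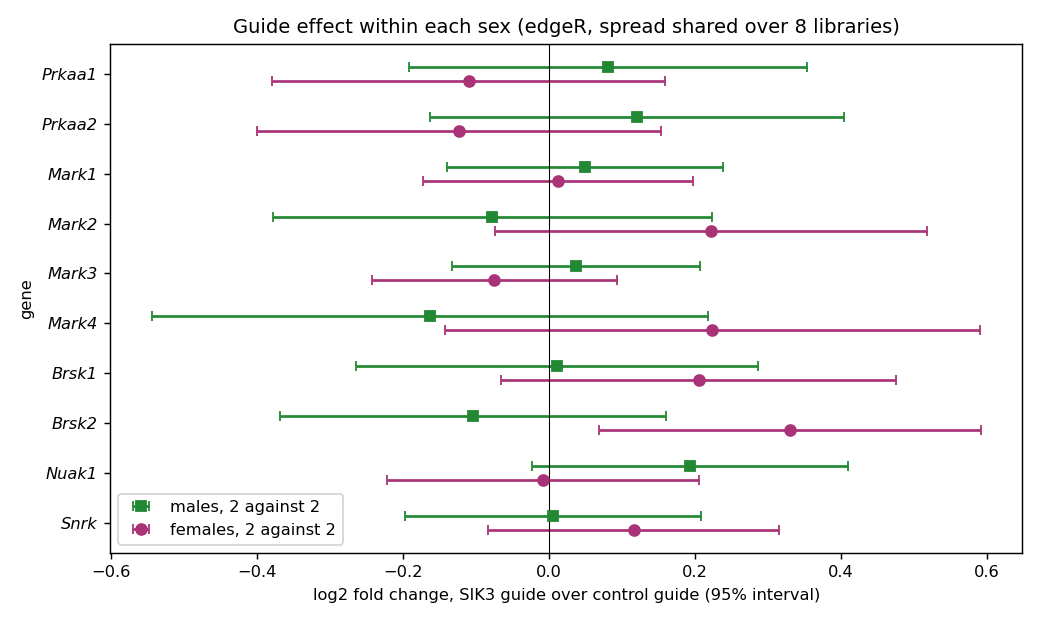
Log2 fold change of SIK3 guide over control guide (horizontal axis) with its 95% interval within males (green squares) and within females (purple circles), 2 mice per guide in each sex, using the spread of all 8 libraries. The intervals of males and females overlap for every kinase, and that of Brsk2 in females is the 1 interval that does not include 0.

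Libraries differed in how CPM depended on the GC content of a gene, and several members varied along with that difference. Its cause was not tested. For each library, log2 CPM minus the mean of the gene over the 8 libraries was regressed on the GC percentage of the longest transcript. The slopes are therefore relative to the mean of the 8 libraries. Computed over 14627 genes without the members, they were 0.14, -0.050, -0.090 and -0.12 per 10 percentage points in controls 1 to 4. In KO 1 to 4 they were -0.16, 0.089, 0.029 and 0.16. Both signs occurred in each group, with control 1 high among controls and KO 1 low among KO mice. The mean slope was -0.029 in control libraries and 0.029 in KO libraries. The GC content of the members ran from 40.2% in Prkaa1, 40.7% in Prkaa2 and 41.2% in Mark3 to 59.8% in Brsk1 and 60.6% in Mark4, around a median of 49.4% over tested genes.

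Across the 8 libraries the GC-rich members were high where the slope was high. Pearson's r with the slope was 0.97 for Mark2, 0.96 for Brsk2, 0.94 for Brsk1 and 0.93 for Mark4, and Spearman's rho was 0.90 to 0.95. The GC-poor members ran the other way, with r of -0.93 for Prkaa1, -0.76 for Prkaa2 and -0.57 for Mark3. In the middle, Snrk was at 0.81, Mark1 at 0.52 and Nuak1 at 0.31, while Sik3 was at 0.039.

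Without control 1 and KO 4, the libraries farthest from the median slope, r was 0.86 to 0.98 for Mark2, Mark4, Brsk1 and Brsk2, -0.85 for Prkaa1 and -0.62 for Prkaa2. These values describe 8 libraries, in which all genes share the same depth, slope and RNA sample. They are not particular to kinases: the median r was 0.73 over the 3115 tested genes above 55% GC and -0.57 over the 3867 below 45%. The slope was computed from these same genes, so the signs of both medians were largely fixed in advance. With 4 libraries per group, no value within a group is given.

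**Figure D5:**
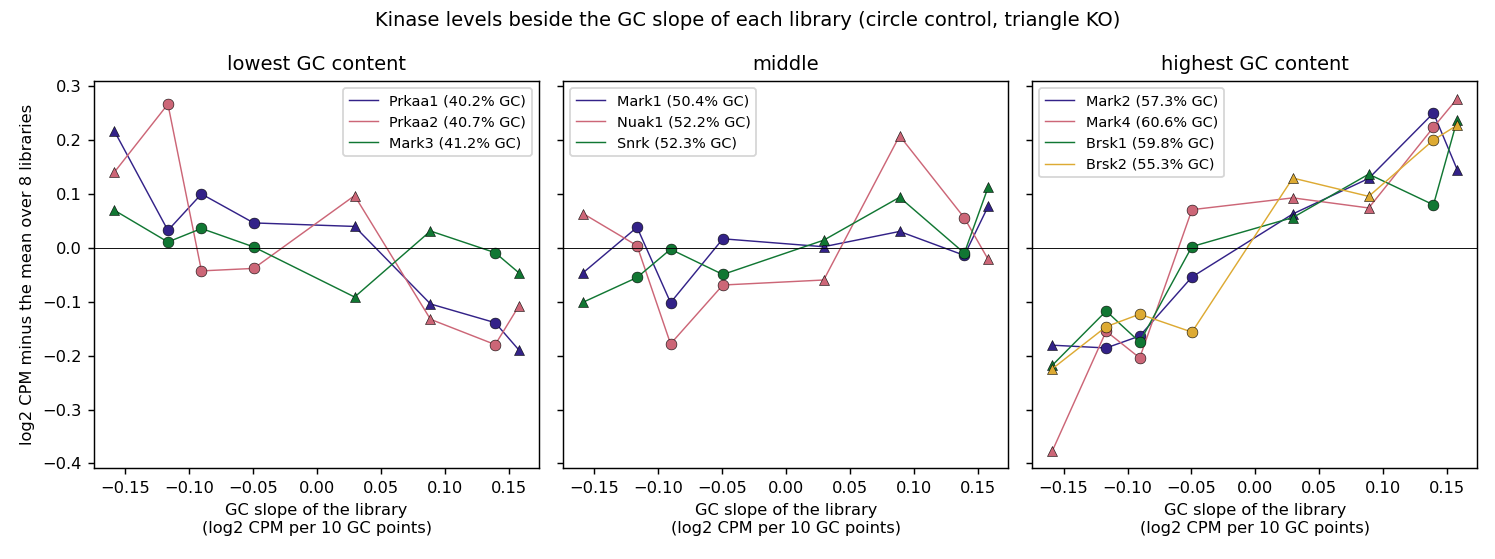
Deviation of each kinase from its mean log2 CPM over 8 libraries (vertical axis) against the GC slope of the library in log2 CPM per 10 percentage points (horizontal axis), circles for control and triangles for KO, with members split into low, middle and high GC content. Lines fall from left to right for Prkaa1 and Prkaa2 (r of -0.93 and -0.76) and climb for Mark2, Mark4, Brsk1 and Brsk2 (r of 0.93 to 0.97).

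With the slope of each library as an added covariate, a choice made after seeing the data, 0 of 10 members passed the guide test or had an unadjusted p under 0.05 (5.14% of all genes did). The standard errors were 0.042 to 0.063, against 0.054 to 0.13 without the slope. Log2 fold changes became 0.036 for Brsk1, 0.033 for Brsk2, -0.0046 for Mark2 and -0.075 for Mark4, and those of Prkaa1 and Prkaa2 became 0.047 and 0.060. That of Sik3 was -0.84 (edgeR, adjusted p = 1.16e-07).

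In the interaction with the slope added, Brsk2 was at 0.15 ± 0.099 (SE; edgeR, unadjusted p = 0.170). Mark2 and Mark4 were at -0.036 and -0.049. In their place Nuak1 was at -0.36 ± 0.11 (edgeR, unadjusted p = 0.00912, adjusted p = 1.0), the 1 member of 10 with an unadjusted p under 0.05 (3.02% of all genes). CA1 marker sums also moved with the GC-rich members in part, at 439, 445 and 441 CPM in control 1, KO 2 and KO 4 and at 368 to 407 CPM in the other libraries. The part of cell content in these differences was not tested.

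Other genes of the pathway were read from the same fit, in which 51.5% of all tested genes had a positive value, 2.81% an unadjusted p under 0.05 and 0.0135% passed. Of the other AMPK-related kinases, 5 of 6 were tested (Melk was not), and Sik3 was the 1 that passed, lower with the SIK3 guide. Hunk averaged 46.1 ± 2.35 CPM with the control guide and 51.2 ± 5.98 CPM with the SIK3 guide (SD), a log2 fold change of 0.15 ± 0.076. Nuak2, the low paralog of Nuak1, was at 0.33 ± 0.23, and Sik2 and Sik1 at 0.0041 and 0.030, with intervals of -0.18 to 0.19 and -0.43 to 0.49.

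AMPK also needs a beta subunit, which acts as a scaffold, and a gamma subunit, which binds AMP and ATP. Of these, 4 of 5 genes were tested (Prkag3 was not) and 0 passed, 2 with positive and 2 with negative values and a median of 0.011. Prkag1 was at 0.11 ± 0.075, Prkag2 at 0.047 ± 0.050 and Prkab2 at -0.025 ± 0.071 (log2 fold change ± SE).

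Among 11 kinases and adaptors that act on the T-loop, which include LKB1 (Stk11), its partners STRAD and MO25, and the CaMKK and TAO kinases, 0 passed. Values were positive for 6 and negative for 5, with a median of 0.025. Camkk2, the calcium-dependent activator of AMPK, averaged 132.9 ± 8.68 CPM with the control guide and 122.9 ± 4.59 CPM with the SIK3 guide (SD), a log2 fold change of -0.11 ± 0.060. Taok3 was at 0.074 ± 0.069 and Camkk1 at 0.059 ± 0.065. Stk11 itself was at 17.4 ± 2.70 and 17.7 ± 2.11 CPM.

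Of 18 genes that encode AMPK substrates, 0 passed, with 11 positive and 7 negative values and a median of 0.0090. Tbc1d1, a regulator of glucose transporter traffic, was at 0.14 ± 0.072, Rptor, the mTORC1 scaffold, at 0.15 ± 0.091, and Mff, a mitochondrial fission factor, at -0.062 ± 0.066. Of 18 substrates and polarity partners of the MARK, BRSK and NUAK kinases, 0 passed, with 15 positive and 3 negative values and a median of 0.027. Akap13 was at 0.12 ± 0.058, Cdc25b, a cell-cycle phosphatase, at 0.16 ± 0.12, and Ppp1cb, a catalytic subunit of protein phosphatase 1, at -0.072 ± 0.063. In both lists 0 of 18 had an unadjusted p under 0.05. Transcript levels do not show the phosphorylation state of these proteins.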

How the data were processed

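The authors deposited 1 file of raw gene counts for each mouse. The submitters' processing notes name HTSeq 2.0.1, TopHat2 2.1.1, Trimmomatic 0.33 and mm10, without saying what each did. Per the labels' protocols, libraries were made with a stranded TruSeq mRNA kit. The sources used here give neither the strand setting nor the annotation release. Another table, whose 8 columns match no mouse by name, was not used here. Each file held 37315 identifiers and 0 rows naming no gene; 1866 identifiers without a symbol took 0.2635% of counts.

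The quasi-likelihood F test of edgeR 4.0.16 (R 4.3.3) was run with TMM scaling, sex as covariate and filterByExpr (minimum count 10, minimum total 15). The filter kept 14788 genes, and the fit had 5 residual degrees of freedom. Calls used a Benjamini-Hochberg adjusted p of 0.05 over all of them. The standard error is the log2 fold change divided by the square root of F. The interaction and the effects within each sex came from a fit of the 4 combinations of guide and sex. CPM used TMM library sizes, and log2 CPM a prior count of 2. Exon lengths, GC content and T-loop bases came from GENCODE M21 on GRCm38. The procedure was tested on simulated counts.

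Replicates are separate mice, numbered in listing order. The members and gene lists were chosen with earlier results of these data known. All members were named, with Sik3, and from each list up to 3 genes with the smallest p, apart from Sik1, Sik2 and Stk11, which were picked with their values known. The alternatives were RLE and upper quartile scaling, 2 other filters, DESeq2 1.42.0, limma 3.58.1 voom, no sex term, leaving out each library or both KO females, the longest transcript as length, and the GC slope.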

Additional observations from a re-analysis of the deposited data

Results flagged for a closer look

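Brsk2 in control 1 stood apart from the other 3 controls, at 123 CPM against 96.0, 98.2 and 96.6 CPM. The gap to the nearest control took 0.917 of the range of the group, above Dixon's critical value for 4 libraries at the 95% level. It was the 1 library that stood apart among 20 groups tested (10 members in 2 groups), and chance gives about 1 in 20. Control 1 also had the highest GC slope among the controls, 0.14 per 10 percentage points. Without control 1 the log2 fold change of Brsk2 was 0.22 (edgeR, adjusted p = 0.536), and with the slope as covariate in all 8 libraries it was 0.033.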

How the results depend on the processing

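Under the 17 alternatives for the guide effect 0 of 170 member values passed an adjusted p of 0.05, and 23 changed sign; for sex and the interaction, too, 0 members passed in every alternative run. Without both KO females the log2 fold change was 0.081 for Prkaa1, 0.12 for Prkaa2, -0.077 for Mark2, 0.037 for Mark3, -0.16 for Mark4 and -0.10 for Brsk2. With the GC slope it was 0.047 for Prkaa1, 0.060 for Prkaa2, -0.0046 for Mark2 and -0.075 for Mark4. Leaving out 1 library gave -0.10 to 0.046 for Prkaa1, -0.085 to 0.086 for Prkaa2, -0.049 to 0.0013 for Mark3 and -0.046 to 0.16 for Mark4. Members with an unadjusted p under 0.05 for the guide numbered 0 to 2 when 1 library was left out (2 without control 1 or KO 1, where 8.93% and 10.9% of all genes did, against 2.81%). For the interaction they numbered 0 to 4 against 1: 0 without control 2, control 4, KO 1 or KO 4, 3 (Brsk2, Mark2 and Mark4) without control 3 and 4 (with Brsk1) without KO 2. In the last 2 fits 11.95% and 15.6% of all genes did, against 5.42%. With no filter on low counts 2 members did (Brsk2 and Mark4; 6.88% of all genes). Without control 1 the 1 such member was Nuak1 (-0.32; 1.99% of all genes). The cause was not tested. Sik3 lost its call without both KO females, at a log2 fold change of -0.90 (edgeR, adjusted p = 0.0990). Genes called in all numbered 84 for the guide with no filter on low counts against 2, and 0 without control 2, control 3, KO 2 or KO 3. No paired analysis was run because the labels give no pairing of KO mice with control mice. Member counts of 279 to 2212 give counting errors of 2.44% to 5.12% on average.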

Other observations

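Among the members, Mark2, Mark4, Brsk1 and Brsk2 varied together over the 8 libraries, with Pearson's r of log2 CPM of 0.87 to 0.94 in their 6 pairs. Against these 4 genes Prkaa1 was at -0.91 to -0.86, Prkaa2 at -0.75 to -0.62 and Mark3 at -0.71 to -0.52, and Prkaa1 and Prkaa2 were at 0.66 with each other. Within the MARK group, Mark3 thus ran against Mark2 (r of -0.52) and Mark4 (-0.71). These paralogs also differ in GC content, at 41.2% for Mark3, 57.3% for Mark2 and 60.6% for Mark4. Their r with the GC slope of the library was -0.57, 0.97 and 0.93, and the cause of the opposite directions was not tested.

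The genes most like the 3 members of highest level per kilobase were taken from 13872 tested genes with a mean CPM of at least 1. For Brsk1 they were Caskin1, Begain and Itgb5, with r of 0.99 each and a GC content of 60.8%, 63.6% and 57.0%. For Brsk2 they were Pdcd11, Pacsin1 and Cadm4, with r of 0.99 each and a GC content of 52.6%, 57.4% and 60.0%. For Mark1 they were Ntm at 0.97, the pseudogene Slc22a13b-ps at 0.95 and Kcna3 at 0.94. These values share libraries, depth and GC slope, and they are the highest of many.

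Among cell type markers, microglial markers summed to 327 CPM in KO 4 against 255 to 280 CPM in the other libraries. Leukocyte markers, all too low to be tested, summed to 0.788 to 0.993 CPM in controls and to 1.01, 0.998, 1.46 and 2.89 CPM in KO 1 to 4. The highest control and the lowest KO library, at 0.993 and 0.998 CPM, were nearly equal and near the floor. The ranges of every other marker list overlapped, and 1.74% of all tested genes did not overlap between the guides. KO 4 also held the highest values of Mark1, Mark4, Brsk1, Brsk2 and Snrk, and the lowest of Prkaa1. It had the highest GC slope of the 8 libraries as well, 0.16 per 10 percentage points. Pearson's r with the slope was 0.52 for Mark1, 0.81 for Snrk, 0.93 for Mark4, 0.94 for Brsk1, 0.96 for Brsk2 and -0.93 for Prkaa1. Oligodendrocyte markers ranged from 2802 CPM in KO 2 to 5133 CPM in control 1. The part of these cells in the kinase levels was not tested.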
